A study of Homo sapiens with 6 samples.

Results

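S100 proteins and annexins are calcium-responsive protein families that meet at the cell membrane. Their genes were picked by symbol: S100 followed by A and a number, B, P, G or Z, the S100P binding protein S100PBP, and ANXA followed by a number. This gave 34 of the 59050 symbols counted, 22 in the S100 group and 12 annexins. The S100 group holds S100A15A, a processed pseudogene in GENCODE 29, and S100PBP, which is not itself an S100 protein. RNA-seq read counts came from H2122, an established human lung cancer cell line, in 3 libraries of the SMARCA4 KO genotype and 3 of the unedited parental line, labelled WT. All 6 libraries came from cells given an unnamed vehicle. How the knockout was made, and whether it is 1 clone or a pool, is not given in the sources used here. A number in the sample titles is 1 for all knockout libraries and 1, 3 and 6 for parental replicates 1, 2 and 3, with no statement of its meaning.

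S100 proteins are small calcium sensors with EF-hand loops. Most work as dimers, which open a binding face when calcium is bound and then hold a partner protein. Annexins bind negatively charged phospholipids in the presence of calcium and gather at membranes during trafficking, membrane repair and apoptosis. Some members of the families bind each other: S100A10 with annexin A2, S100A11 with annexin A1 and S100A6 with annexin A11. Several S100 proteins are also secreted and act on receptors of other cells, and several S100 genes are used as markers of epithelial or mesenchymal state.

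Reads assigned to genes numbered 55120937 to 59917980 per library. Levels are CPM (reads scaled to a common library size) after TMM scaling, which corrects for differences in RNA composition. The limit set by 3 reads was 0.0497 to 0.0545 CPM, a limit that covers counting error only. SMARCA4, the targeted gene, was read at 19.3 to 24.9 CPM in the knockout and 214.5 to 335 CPM in the parental libraries (log2 fold change -3.59, edgeR adjusted p = 0.000176). Parental replicate 3 stood apart on the component holding 18.99% of the variance, after one of 76.5% that split the groups, and values without it are given where it moves a result. Of 9 epithelial and lung markers 7 were tested, of which 5 fell and none rose. KRT7 and KRT8 fell but stayed above 952 CPM in each library, as KRT18 did above 773 CPM. KRT19 fell from 1344 ± 114.1 to 31.8 ± 0.689 CPM, CDH1, which encodes E-cadherin, from 341 ± 173.9 to 5.56 ± 0.105 CPM, and EPCAM from 371 ± 39.3 to 74.2 ± 4.92 CPM (SD, n = 3 per group). Outside that list VIM, the vimentin gene of mesenchymal cells, rose from 0.309 ± 0.223 to 34 ± 0.718 CPM. The lung lineage markers NKX2-1, SFTPB and NAPSA were at most at 1.49 CPM in any library. The labels do not say whether replicates were separate cultures, and the p-values rest on library spread alone, which may be technical. In bulk RNA, fewer cells with a transcript and less transcript per cell cannot be told apart.

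Of the 34 genes, 25 had enough reads to be tested, 14 in the S100 group and 11 annexins. In the S100 group, 4 rose, 5 fell and 5 did not pass in the SMARCA4 knockout. Among the annexins, 1 rose, 3 fell and 7 did not pass. The test was edgeR's quasi-likelihood F-test with an adjusted p under 0.05, which called 27.6% of all 17809 genes tested. In 7 members every knockout library was higher and in 9 every one was lower, against 49.8% of all genes with no overlap. The median log2 fold change was -0.42 for the S100 group and -0.26 for the annexins, against 0.02 over all genes. The members that changed at least 2-fold were S100A14, S100A9, S100A12, ANXA10 and ANXA11, which fell, and S100A4 and S100A3, which rose. Over all genes, 17% passed with a change of that size. Without parental replicate 3, S100A9 changed by less than 2-fold (log2 fold change -0.96).

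**Figure D1:**
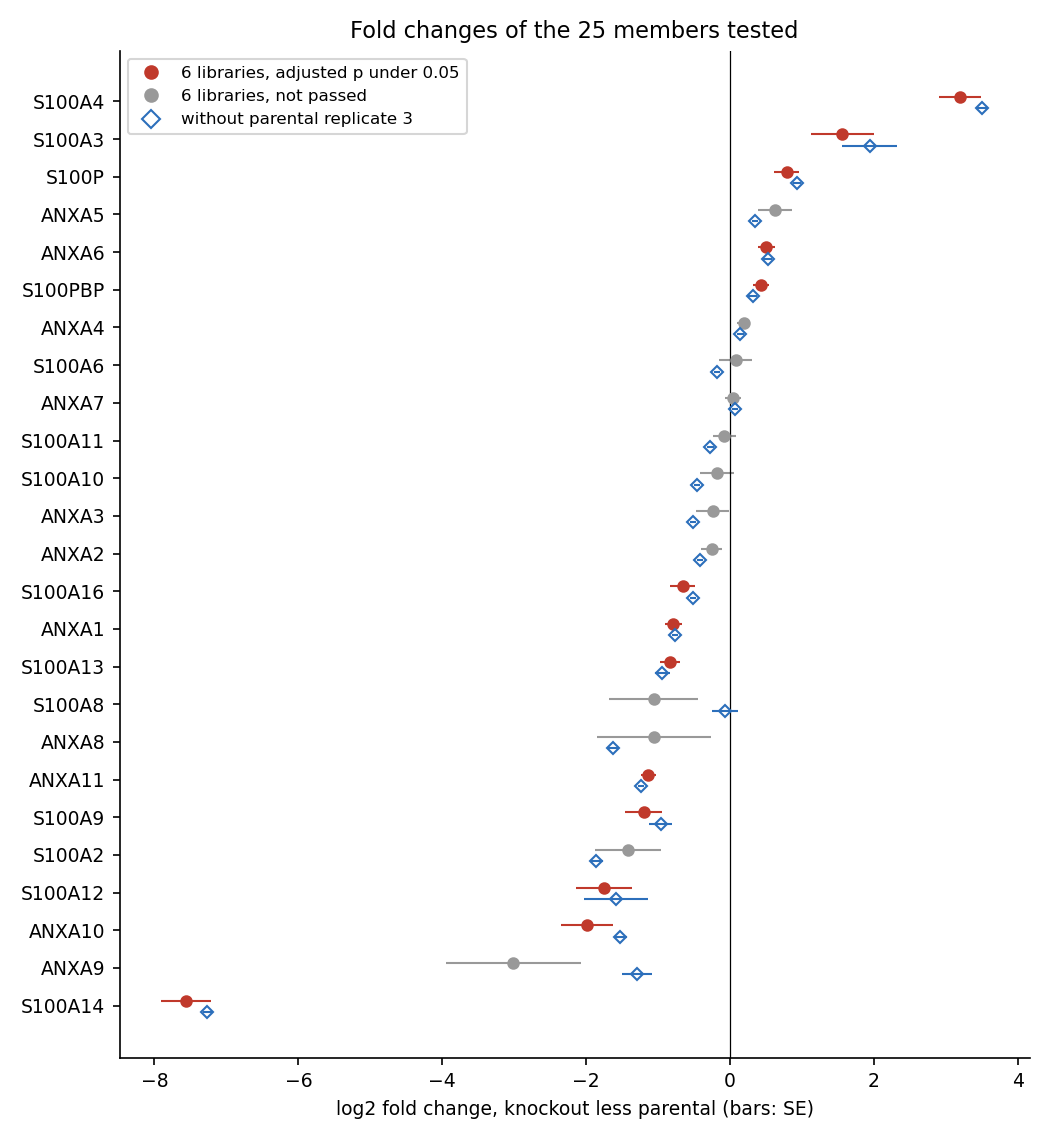
Log2 fold change of each of the 25 genes tested, knockout less parental, with its standard error. Filled circles use 6 libraries and open diamonds leave out parental replicate 3. S100A14 at -7.56 and S100A4 at 3.19 lie farthest from 0 on either side.

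The widest change in either family was the fall of S100A14, a membrane-associated S100 protein of epithelia that lacks a working calcium loop. S100A14 (chromosome 1, 153614255 to 153616986 on GRCh38, minus strand) stood at 595, 594 and 1080 CPM in parental replicates 1 to 3. In the knockout libraries it stood at 4.21, 3.65 and 4.12 CPM. The groups lay far apart, with 201 to 249 reads in the knockout and 33964 to 61417 in the parental libraries. The log2 fold change was -7.56 (SE 0.35, edgeR adjusted p = 6.68e-05), a 189-fold lower level. Without parental replicate 3, the highest of the 3, it was -7.26.

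S100A4 moved the opposite way. It encodes a small protein that binds non-muscle myosin and is widely used as a marker of motile and mesenchymal cells. S100A4 (chromosome 1, 153543613 to 153550136, minus strand) was read at 72.96, 65.2 and 65.4 CPM in the knockout libraries. The parental libraries gave 6.25, 5.29 and 10.7 CPM. All knockout libraries were above all parental ones, with a log2 fold change of 3.19 (SE 0.29, edgeR adjusted p = 0.000648), a 9.14-fold higher level. The genes lie 64118 bases apart on the same strand. Per exon length, S100A14 was 76.4, 90.1 and 80.8 times as abundant as S100A4 in the parental libraries. In the knockout libraries the same ratio was 0.0463, 0.0449 and 0.0506, so the order of the pair turned over.

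Fibroblasts also make S100A4, and markers of that cell type were read beside it. Of 7 fibroblast markers 4 were tested, of which LUM, MFAP5 and COL3A1 rose and COL1A1 fell. The COL1A1 call was lost when any knockout library was left out (adjusted p up to 0.137). It was also lost with limma-voom and with the replicate number as a block. LUM went from 0.369 ± 0.0168 to 26.8 ± 2.402 CPM (SD, n = 3 per group). Of the defining receptors, PDGFRA had at most 0.035 CPM and PDGFRB at most 0.141 CPM in any library, and DCN, which encodes decorin, at most 0.23 CPM. MFAP5 went from 0.719 to 38.5 CPM and COL3A1 from 0.158 to 5.1 CPM on average. The summed level of the 7 markers was 92 to 98.1 CPM in the knockout and 39.5 to 111.4 CPM in the parental libraries, so the groups overlapped. The parental sums were almost all COL1A1, at 38.6, 45.9 and 109 CPM, so the overlap of the sums does not describe the markers that rose. Whether S100A4 and these markers share a source was not tested.

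The starts of S100A14 and S100A4 are shown because they are the members with the widest change in each direction and sit in the same gene cluster. The sequences are RefSeq promoters on GRCh38.p14, 250 bases before to 50 after the annotated start, written 5′ to 3′ on the gene's own strand. In both genes this start lies inside the GENCODE 29 span. Capitals mark matches to any of 4 motifs searched on both strands: the E-box CAGGTG, bound by ZEB and SNAIL repressors, the AP-1 motif TGANTCA, the grainyhead motif AACNGGTT and the TATA box TATAAA.
S100A14, chr1:153616276-153616575, minus strand: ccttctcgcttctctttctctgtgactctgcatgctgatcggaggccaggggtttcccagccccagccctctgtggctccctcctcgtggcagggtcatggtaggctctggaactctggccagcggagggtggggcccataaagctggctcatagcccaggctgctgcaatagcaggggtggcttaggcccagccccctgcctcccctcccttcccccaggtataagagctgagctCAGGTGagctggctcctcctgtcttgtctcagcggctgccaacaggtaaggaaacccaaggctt
S100A4, chr1:153545757-153546056, minus strand: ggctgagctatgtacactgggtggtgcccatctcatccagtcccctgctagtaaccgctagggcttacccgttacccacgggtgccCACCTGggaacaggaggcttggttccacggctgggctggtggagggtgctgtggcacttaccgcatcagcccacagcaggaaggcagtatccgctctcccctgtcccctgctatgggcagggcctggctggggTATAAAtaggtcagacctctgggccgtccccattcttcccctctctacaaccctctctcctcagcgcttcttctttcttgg
The S100A14 window held an E-box 14 bases before the start and no other of these motifs. The S100A4 window held a TATA box 31 bases before the start and an E-box, read as CACCTG, 164 bases before it. Both windows thus carry the E-box letters, at different distances from the start. Whether these letters bear on either change was not tested. RefSeq listed 43 promoters for 30 of the 34 genes, some with several starts. The E-box occurred in 19 of these 43 (44.2%), against 20.6% of all 35116 promoters of the same length, and the TATA box in 15 (34.9%), against 11.5%. AP-1 letters were in 6 (13.95%), against 7.71% of all promoters, and grainyhead letters in 1 (2.33%), against 1.73%. Counted by gene, the E-box was in 16 of 30 (53.3%) against 24.1% of all genes, and the TATA box in 14 (46.7%) against 14%. By the same count AP-1 letters were in 6 (20%) against 9.37%, and grainyhead letters in 1 (3.33%) against 2.14%. A match is a description of the letters and not evidence of binding.

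**Figure D2:**
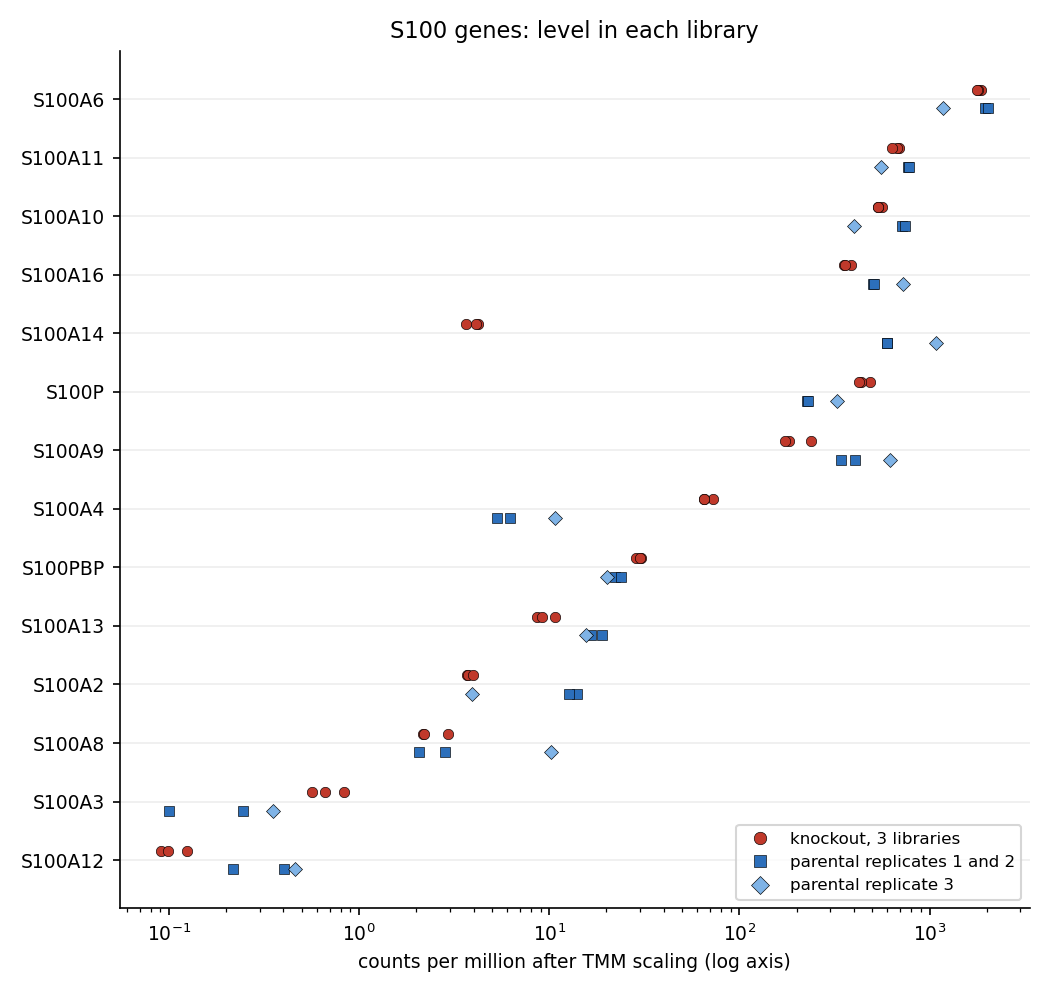
Level of each tested S100 gene in each of 6 libraries, in CPM on a log axis. Circles are knockout libraries, squares are parental replicates 1 and 2, and diamonds are parental replicate 3. S100A14 and S100A4 show the widest gaps between groups, while S100A6, S100A11 and S100A10 overlap.

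The calgranulin genes ranged from low to high in these cells, and S100A9 and S100A12 fell while S100A8 did not pass. S100A8 and S100A9 encode the subunits of calprotectin, a metal-binding protein of neutrophils and stressed epithelium, and S100A12 encodes a related ligand of the receptor RAGE. S100A9 (chromosome 1, 153357854 to 153361027) fell from 407, 341 and 621 CPM in the parental libraries to 238, 183 and 173 CPM in the knockout. The groups did not overlap, and the log2 fold change was -1.20 (SE 0.26, edgeR adjusted p = 0.0172). With knockout replicate 2 or 3 left out, or with the replicate number as a block, it no longer passed (adjusted p up to 0.0836). Without parental replicate 3, the highest library, S100A9 changed by -0.96, under 2-fold, and still passed (edgeR adjusted p = 0.0069). S100A8 was read at 2.94, 2.16 and 2.19 CPM in the knockout and 2.84, 2.08 and 10.3 CPM in the parental libraries. Only parental replicate 3 was high, and the change of -1.06 (SE 0.62) did not pass (adjusted p = 0.261). It was -0.06 without that library. Per exon length, S100A9 was 105.3 to 286 times as abundant as S100A8 in each library, so the subunits of calprotectin were far from equal at the RNA level. S100A12 fell from 23, 13 and 26 parental reads to 7, 5 and 6 reads (-1.76, edgeR adjusted p = 0.0186). Leaving out any knockout library, or parental replicate 1, ended that call (adjusted p up to 0.088).

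Neutrophils and monocytes are the usual source of the calgranulins. Of 8 myeloid markers 3 were tested, of which LYZ fell and CD14 and CD68 did not pass. PTPRC, which encodes the pan-leukocyte protein CD45, had 0 reads in all 6 libraries, and MPO and ELANE, which encode granule enzymes of neutrophils, had at most 3 reads in any. The summed level of the 8 markers was 0.6897 to 0.878 CPM in the knockout and 1.47 to 1.83 CPM in the parental libraries, with no overlap. Their part in the results for S100A9 and S100A12 was not tested.

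S100A6, S100A11 and S100A10, which pair with annexins, were abundant in both groups and did not pass. S100A4, also grouped here with the S100 proteins that have an annexin partner, rose as given above (log2 fold change 3.19). S100A6, also called calcyclin, was read at 1876, 1807 and 1768 CPM in the knockout and 1955, 2039 and 1180 CPM in the parental libraries. S100A11, linked to keratinocyte growth control, stood at 692, 672 and 631 against 771.5, 782 and 555 CPM. S100A10, the calcium-independent light chain of annexin A2, stood at 562, 538 and 536 against 717, 739 and 403 CPM. In all 3 genes parental replicate 3 lay below every knockout library and the other parental libraries lay above. The log2 fold changes with all libraries were 0.08 (SE 0.22) for S100A6, -0.08 (SE 0.16) for S100A11 and -0.18 (SE 0.24) for S100A10. Without parental replicate 3 they were -0.19, -0.27 and -0.47, and each then fell (edgeR adjusted p up to 0.00292). The direction of S100A6 turned on that library. Those fits called 61.6% of 18372 genes tested.

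Levels within each S100 and annexin pair were set against each other as ratios. ANXA2 encodes the heavy chain that joins S100A10 on membranes and binds plasminogen there. The per-length ratio of ANXA2 to S100A10 was 0.699, 0.697 and 0.673 in the knockout libraries and 0.662, 0.674 and 0.933 in the parental ones. Apart from parental replicate 3, the ratio of this pair was nearly constant. The ratio of ANXA1 to S100A11 was 0.1596, 0.165 and 0.262 in the parental libraries, against 0.116, 0.115 and 0.116 in the knockout. The ratio of ANXA11 to S100A6 was 0.0271, 0.0268 and 0.0402 in the parental libraries, against 0.01301, 0.0131 and 0.0128 in the knockout. In the last 2 pairs the groups did not overlap, and the annexin made up a smaller part of the pair in the knockout.

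The genes on either side of S100A14 also fell, by smaller fold changes. S100A16, a broadly expressed paralog 1109 bases from S100A14, was read at 387, 356 and 358 CPM in the knockout and 505, 511.5 and 722 CPM in the parental libraries. It fell by 0.66 on the log2 scale (SE 0.17, edgeR adjusted p = 0.0322). The S100A16 call was lost with any knockout library left out or with the replicate number as a block (up to 0.134). Its position next to S100A14, with changes of such different size, is shown in the plot of gene order. S100A13, which takes part in the release of fibroblast growth factor 1, lies 1800 bases on the other side. It fell from 16.6, 18.9 and 15.6 to 8.66, 9.18 and 10.7 CPM (-0.84, SE 0.14, edgeR adjusted p = 0.00685). Its exons overlap other genes over 33.5% of their length, those of AL162258.1 on the same strand and S100A1 on the other, so its counts are uncertain. S100A2, a gene of basal and squamous epithelium, stood at 3.68, 3.74 and 3.99 CPM in the knockout and 14, 12.7 and 3.904 CPM in the parental libraries. Parental replicate 3 lay within the knockout range, and the change of -1.42 (SE 0.46) did not pass (adjusted p = 0.066). Without that library it was -1.86 and passed (adjusted p = 4.26e-09), as it did with DESeq2 on all libraries (0.00695).

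Squamous markers were read beside S100A2. TP63, a regulator of basal epithelium, was at 96.7, 83.6 and 5.96 CPM in the parental libraries and at 2.302 to 2.61 CPM in the knockout. Of the 8 keratinocyte symbols listed, 4 were tested: TP63 and IVL fell, KRT14 rose and KRT10 did not pass. The TP63 call was lost with any knockout library left out (adjusted p up to 0.0808), with limma-voom (0.0914) and with the replicate number as a block. KRT14 no longer passed with knockout replicate 1 or 2, or the second parental replicate, left out (up to 0.0803). KRT1 and LOR had 0 reads in every library and KRT5 at most 0.035 CPM. The summed level of this list was 32.6 to 33.9 CPM in the knockout and 35.1 to 141 CPM in the parental libraries, with parental replicate 3 the lowest of the latter. Most of the knockout sum was KRT10, at 29.1 to 30.6 CPM. The part of this list in the result for S100A2 was not tested.

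Besides S100A4, 3 genes of the S100 group rose. S100P, a secreted ligand of RAGE named for placenta and raised in many adenocarcinomas, lies on chromosome 4 (6693069 to 6697170). It was read at 488, 436 and 425 CPM in the knockout and 227, 229 and 328 CPM in the parental libraries. The groups did not overlap (log2 fold change 0.78, SE 0.18, edgeR adjusted p = 0.0205). S100PBP, a nuclear protein that binds S100P, rose from 22.1 ± 1.91 to 29.6 ± 0.805 CPM (SD, n = 3 per group, 0.43, edgeR adjusted p = 0.0299). S100A3, best known from the hair cuticle, rose from 14, 6 and 20 parental reads to 32, 46 and 40 (1.56, edgeR adjusted p = 0.042). S100A3 lies inside the span of S100A4 on the same strand, with no shared exon bases. Its reads came to 0.775% to 1.28% of those of S100A4 in the knockout and 1.9% to 3.92% in the parental libraries, and the part of S100A4 transcripts in this result was not tested. The calls of these 3 genes were less firm than that of S100A4. S100P and S100A3 each lost the call without any 1 library except parental replicate 3, with adjusted p up to 0.0868 and 0.145. Both also lost it with the replicate number as a block. S100PBP lost it without any knockout library or parental replicate 1 (up to 0.119) and with the replicate number as a block (0.11). It also lost it with RLE factors (0.0509) and with no low-count filter (0.151).

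The remaining 8 members of the S100 group did not pass the low-count filter and were not tested. S100B, the glial and melanocyte gene, and S100G, which encodes the intestinal calcium buffer calbindin-D9k, had 0 reads in every library. That allows at most 0.0545 CPM in any library. The glial marker SOX10 was also at 0 in all 6, and the 6 glial and melanocyte markers summed to 25.8 to 26.55 CPM in the knockout against 38.2 to 48.7 CPM. S100Z had 3, 0 and 3 reads in the parental and 0 in the knockout libraries. S100A1, the heart and muscle gene, had 2 to 7 reads, and S100A5, whose protein is found in olfactory neurons, had 5 to 27. S100A7, which encodes psoriasin, had 1 to 11 reads, and its paralog S100A7A at most 2. The row named S100A15A had the same reads as S100A7A in each library. GENCODE 29 gives that name to a pseudogene, but whether the authors' annotation did is not known here, so both rows may count the same gene. All 8 were below the low-count filter, and no comparison of them is given.

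**Figure D3:**
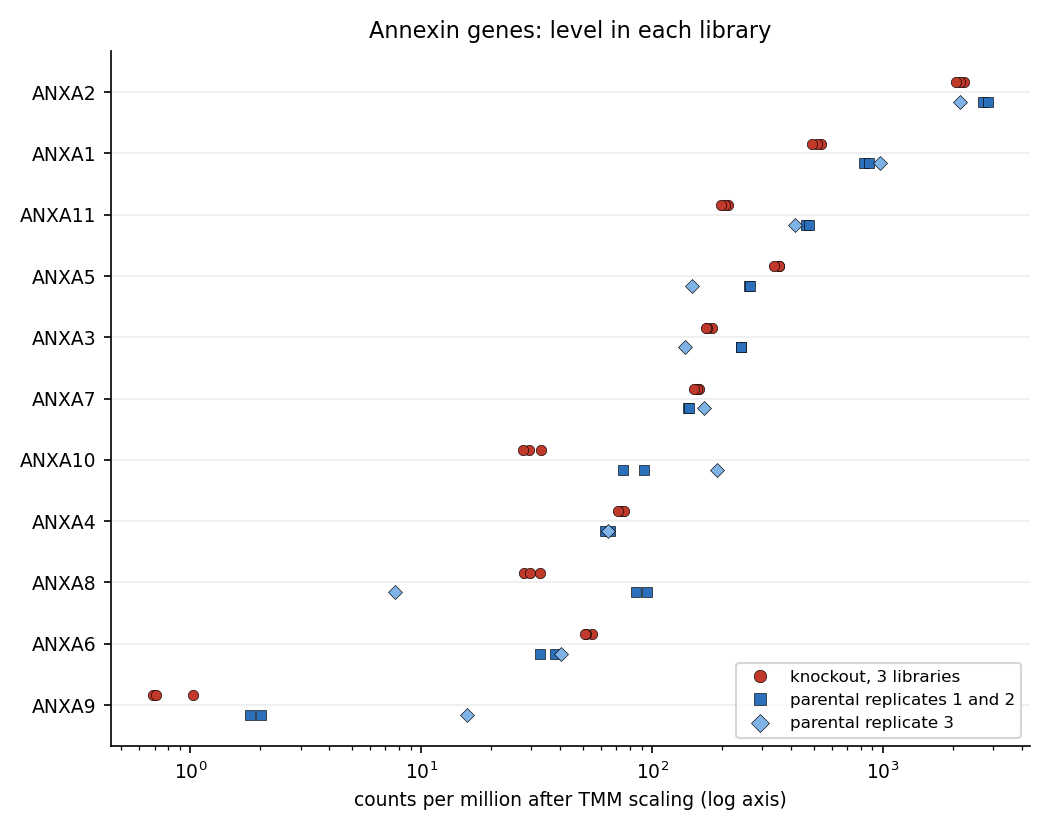
Level of each tested annexin gene in each of 6 libraries, in CPM on a log axis. Circles are knockout libraries, squares are parental replicates 1 and 2, and diamonds are parental replicate 3. ANXA11, ANXA1 and ANXA10 are lower in every knockout library, while parental replicate 3 is the lowest library for ANXA8 and the highest for ANXA9.

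Among annexins, the 3 that fell were ANXA11, ANXA1 and ANXA10. ANXA11 (chromosome 10, 80150889 to 80205572) encodes a protein that tethers RNA granules to lysosomes. It was read at 214, 207 and 198 CPM in the knockout and 465, 479 and 416 CPM in the parental libraries. The spread within each group was small beside the gap, and the log2 fold change was -1.13 (SE 0.11, edgeR adjusted p = 0.00072). ANXA1 (chromosome 9, 73151757 to 73170393) encodes the glucocorticoid-induced annexin that acts on formyl peptide receptors. It fell from 826, 868 and 974 CPM to 537, 519 and 490.2 CPM (-0.79, SE 0.12, edgeR adjusted p = 0.00434). ANXA10 (chromosome 4, 168092515 to 168187690), typical of gastric epithelium, was at 92, 74.5 and 190.5 CPM in the parental libraries. It was at 33, 29.3 and 27.6 CPM in the knockout, with a log2 fold change of -1.99 (SE 0.37, edgeR adjusted p = 0.00967). Leaving out parental replicate 3, the high library, gave -1.52. The ANXA10 call was lost without knockout replicate 3 (0.056).

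The one annexin that rose was ANXA6, which has a duplicated core and links membranes to the actin cytoskeleton. It went from 32.8, 38.1 and 40.3 CPM in the parental libraries to 54.8, 51.7 and 51.3 CPM (0.51, SE 0.11, edgeR adjusted p = 0.0187). The call was lost without any 1 library except parental replicate 3 (up to 0.0895). It was also lost with the replicate number as a block (0.0784) and with no low-count filter (0.0577).

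Most annexins of general function did not pass. ANXA2, the most abundant, was at 2245, 2145 and 2064 CPM in the knockout and 2715, 2849 and 2151 CPM in the parental libraries (-0.26, SE 0.15). ANXA5, whose protein binds phosphatidylserine and is used to stain apoptotic cells, was at 355, 353 and 339 against 263, 267 and 149 CPM. Its groups did not overlap, but the change of 0.62 (SE 0.23) did not pass (adjusted p = 0.0979). Without parental replicate 3, the lowest library, the change of ANXA5 was 0.35 and passed (adjusted p = 1.17e-05). ANXA4, an annexin of epithelial secretory membranes, was at 71 to 75.5 CPM in the knockout and 62.3 to 65.95 CPM in the parental libraries (0.19, SE 0.09, adjusted p = 0.161). ANXA7, also called synexin, stayed between 142.5 and 168 CPM in all 6 libraries (0.04, SE 0.11). ANXA3 was at 171.5 to 181 CPM in the knockout, and at 241, 242.5 and 138 CPM in the parental libraries (-0.24, SE 0.23). Leaving out parental replicate 3 gave -0.42 for ANXA2 and -0.51 for ANXA3, and both then fell (edgeR adjusted p = 6.64e-06 and 3.83e-07). ANXA13, an intestinal and renal annexin, had 1 read in all 6 libraries together and was not tested.

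In ANXA8 and ANXA9, parental replicate 3 lay far from the other parental libraries. ANXA8, a gene of squamous and basal epithelium, was at 84.99 and 95.3 CPM in parental replicates 1 and 2 but at 7.69 CPM in replicate 3. The knockout libraries lay between, at 28, 29.5 and 32.7 CPM. The change was -1.06 (SE 0.79, adjusted p = 0.376) with all libraries, and -1.63 (edgeR adjusted p = 1.31e-07) without parental replicate 3. ANXA8 shares 71.9% of its stretches of 50 bases with other transcripts, chiefly those of its near copy ANXA8L1, so its counts are uncertain. ANXA8L1 gave 22.8, 25.5 and 1.64 CPM in the parental libraries, low in the same one. ANXA9, whose protein has lost its calcium-binding sites, went the other way. It was at 1.82 and 2.03 CPM in parental replicates 1 and 2, at 15.8 CPM in replicate 3, and at 0.6895, 0.708 and 1.03 CPM in the knockout. Its groups did not overlap, yet the change of -3.01 (SE 0.94) did not pass (adjusted p = 0.0601). Leaving out that library gave -1.29, which passed (adjusted p = 0.000189), and it also passed without parental replicate 1 or 2 (at most 0.0451).

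Of the 25 genes tested, 6 differed more than 2-fold between parental replicate 3 and the mean of the other parental libraries. S100A8, ANXA9, ANXA10 and S100A3 were above, and ANXA8 and S100A2 below. That is 24% of the members, against 23.95% over all genes. With that library left out, 4 of 14 S100 genes rose and 9 fell, and 3 of 11 annexins rose and 7 fell, in a fit that called 61.6% of all genes. Only S100A8 and ANXA7 did not pass there. Among the added calls, S100A2 (-1.86), ANXA8 (-1.63) and ANXA9 (-1.29) changed more than 2-fold. The other added calls were smaller changes, the smallest 0.14 for ANXA4. Of the 13 calls made with all libraries, 5 held in all 14 fits run, namely S100A14, S100A4, S100A13, ANXA1 and ANXA11.

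**Figure D4:**
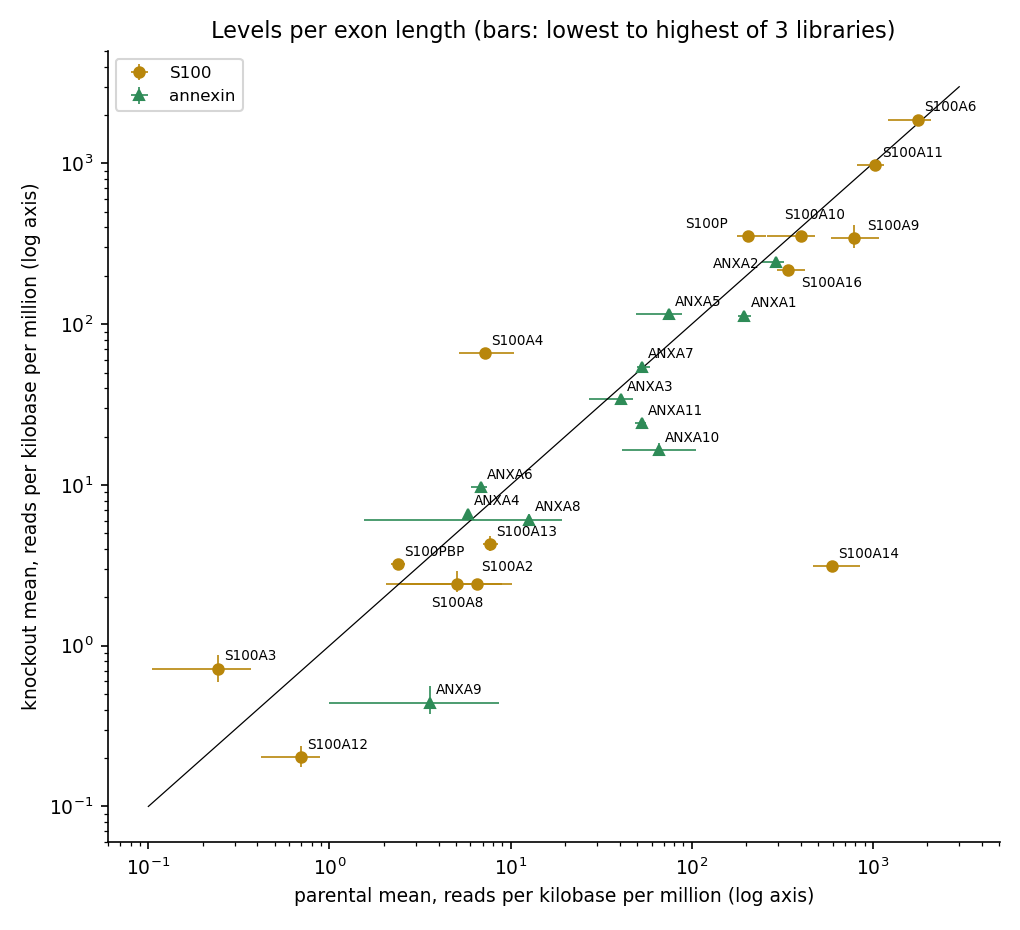
Mean level of each tested gene in the knockout against the parental libraries, in RPKM, CPM per kilobase of exon, on log axes, with bars from the lowest to the highest of 3 libraries. The line marks equal levels. S100A14 lies far below it at 592 and 3.13, and S100A4 above it at 7.24 and 66.2.

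The order of levels among members was taken per exon length, as CPM per kilobase of annotated exon (RPKM). In the parental libraries the S100 group was led by S100A6 at 1776 ± 488 RPKM, S100A11 at 1034 ± 188, S100A9 at 790.2 ± 254 and S100A14 at 592 ± 219.6 (SD, n = 3). S100A10 followed at 402 ± 122, S100A16 at 341 ± 72.7 and S100P at 204 ± 45.1. All others were under 8 RPKM, with S100A13, S100A4, S100A2 and S100A8 between 5.03 and 7.68 and within each other's spread. In the knockout, S100A6 at 1871 ± 56.5 and S100A11 at 978 ± 45.8 still led. S100A10, S100P and S100A9 came next at 353 ± 9.27, 351 ± 26 and 344 ± 60.8, within each other's spread. S100A14 went from the fourth place of the 14 to the tenth, at 3.13 ± 0.236, and S100A4 from the ninth to the seventh. Among annexins ANXA2 led in both groups, at 291 ± 41.98 RPKM in the parental and 244 ± 10.3 in the knockout libraries. ANXA1 and ANXA5 were at 195 ± 16.8 and 74.6 ± 22.1 in the parental group. They were at 113 ± 5.16 and 115 ± 2.95 in the knockout, where they did not differ beyond their spread on this scale. The length used counts every annotated exon of a gene, 4561 bases for ANXA1 and 3034 for ANXA5. The order therefore depends on the annotation as well as on the reads. In CPM, without the length, ANXA1 was at 515 ± 23.6 and ANXA5 at 349 ± 8.96 in the knockout.

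Summed over the S100 group, the level was 4009 to 4367 CPM in the knockout and 4951 to 5298 CPM in the parental libraries, with no overlap. Without S100A14 the sum was 4005 to 4363 CPM against 3871 to 4704 CPM, and the groups overlapped. The annexins summed to 3597 to 3883 CPM in the knockout and 4315 to 5121 CPM in the parental libraries.

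**Figure D5:**
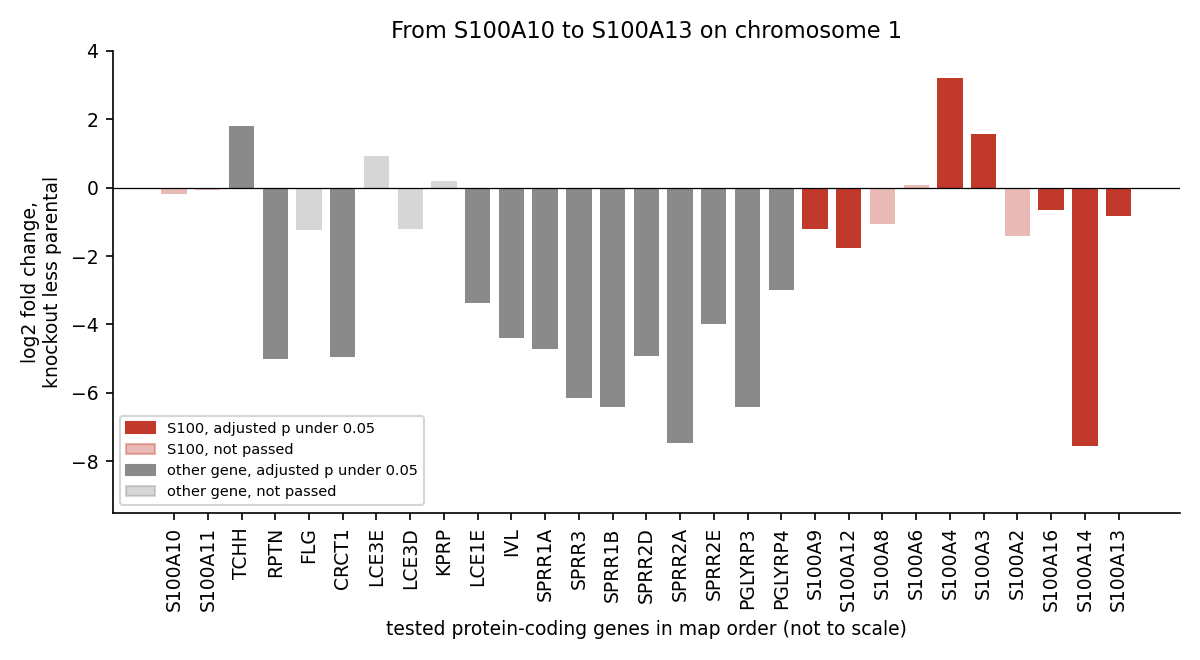
Log2 fold change, knockout less parental, of tested protein-coding genes from S100A10 to S100A13 on chromosome 1, in map order and not to scale. Red bars are S100 genes, grey bars are other genes, and pale bars did not pass. S100A4 and S100A3 rose between S100 genes that fell or did not pass, and the grey genes between SPRR1A and PGLYRP4 all fell.

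The S100A genes sit in a stretch of chromosome 1 that also holds the epidermal differentiation complex, a set of genes for the cornified layer of squamous epithelium. Between S100A10 and S100A1 (151982915 to 153632039) lie 17 members, of which 12 were tested, 2 rose, 5 fell and 5 did not pass. The other protein-coding genes of the stretch numbered 48, of which 17 were tested, 12 fell, 1 rose and 4 did not pass, with a median of -4.41. Some of them, such as PGLYRP3, CRCT1, LCE1E and PGLYRP4, had knockout means of 0.0358 to 0.041 CPM. Those genes passed the low-count filter through their parental reads, so the counts and the median depend partly on that filter. Over all genes tested, 14.3% fell and 13.3% rose. The small proline-rich gene SPRR3, an envelope protein, fell by 6.15 on the log2 scale, and IVL, which encodes involucrin, fell by 4.41. With parental replicate 3 left out, 15 of 18 such genes of the stretch fell and 1 rose, in a fit that called 61.6% of all genes. With a knockout library left out 7 or 8 changed instead of 13. With a minimum of 1 CPM in 3 libraries only 8 were tested, of which 7 fell and 1 rose. Some neighbouring members shared a direction and differed in size, as S100A16 (-0.66) and S100A13 (-0.84), which flank S100A14 (-7.56). S100A4 (3.19) and S100A3 (1.56) both rose, while S100A6 (0.08), 7368 bases from S100A4, did not pass. Whether position bears on any of these changes was not tested.

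The S100-fused genes of the same stretch encode large proteins with an S100 domain at their start. Of 7, 3 were tested. TCHH, the trichohyalin gene, rose (1.80, edgeR adjusted p = 0.0218), RPTN, the repetin gene, fell (-5, adjusted p = 0.0386) and FLG did not pass. RPTN was at 11 and 12.5 CPM in parental replicates 1 and 2 and at 0.229 CPM in replicate 3, within the knockout range of 0.141 to 0.363 CPM. Both calls were lost without any knockout library, and that of RPTN also without parental replicate 1 or 2, at an adjusted p up to 0.0851 and 0.141. The RPTN call was also lost with limma-voom (0.261).

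Receptors for the secreted members were read next. Of 9 genes 6 were tested, of which 1 rose, 1 fell and 4 did not pass (median 0.16). Over all genes 27.6% were called, the share to set beside the counts of this list and those below. TLR4, the receptor for calprotectin, fell from 7.303, 5.78 and 1.25 CPM in the parental libraries to 0.0884, 0.127 and 0.0994 CPM in the knockout (-5.48, edgeR adjusted p = 0.00375). BSG, which encodes the S100A9 receptor basigin, rose from 476 ± 16.9 to 757 ± 35 CPM (0.67, edgeR adjusted p = 0.00506). AGER, the gene for RAGE, was at 1.87 to 3.395 CPM in all libraries and did not pass. The formyl peptide receptor genes FPR1, FPR2 and FPR3, through which annexin A1 signals, had at most 2 reads in any library.

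Of 9 genes of plasminogen activation, where annexin A2 and S100A10 act at the surface, 8 were tested, 1 rose, 2 fell and 5 did not pass (median -0.02). PLAT, which encodes tissue plasminogen activator, fell from 23.8, 21.9 and 12.5 CPM to 0.725, 0.653 and 0.5796 CPM (-4.89, edgeR adjusted p = 0.00019). SERPINE2, a protease inhibitor gene, rose from 41.97 ± 22.6 to 441 ± 8.54 CPM (3.39, adjusted p = 0.00387). SERPINB2, the gene for plasminogen activator inhibitor type 2, fell from 34, 35 and 0.668 CPM to 0.0354, 0.127 and 0.116 CPM (-7.93, adjusted p = 0.0151). Its knockout libraries had 2 to 7 reads, and the call was lost without any knockout library (at most 0.0735) and with limma-voom (0.169). PLAU and PLAUR did not pass.

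Of 15 other genes of plasma membrane repair, 14 were tested, 1 rose, 4 fell and 9 did not pass (median -0.19). CAPN1, a calpain that cuts membrane repair proteins, fell from 453, 475.5 and 471 CPM to 137, 131.2 and 131.2 CPM (-1.81, edgeR adjusted p = 9.35e-05). SYT7, a calcium sensor of lysosome exocytosis, fell by 2.2 on the log2 scale (adjusted p = 0.000482). DYSF, which encodes dysferlin, fell by 1.24 (adjusted p = 0.00293). Of 20 other small EF-hand genes, 14 were tested, 1 rose, 4 fell and 9 did not pass (median -0.36). CALM2, a calmodulin gene, fell from 391.6 ± 20.2 to 239.5 ± 8.93 CPM (-0.71, edgeR adjusted p = 0.00347), EFHD2 changed by -0.99 and CIB2 by 0.62. The EFHD2 call was lost without any knockout library (at most 0.0553) and the CIB2 call without any knockout library or parental replicate 1 (at most 0.0973). Of 12 intracellular binding partners, all tested, 1 rose and 11 did not pass (median 0.10). With parental replicate 3 left out, the numbers rising and falling were 5 and 4 for these partners, 3 and 2 for receptors, 2 and 5 for plasminogen genes, 3 and 8 for membrane repair and 4 and 8 for EF-hand genes. That fit called 61.6% of all genes, against 27.6% with all libraries.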

How the data were processed

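The deposited files hold raw read counts per gene symbol for 6 libraries. Per the submitters' processing notes, which list names without roles, the authors' work involved hg38, TopHat2 2.1.1 and HTSeq 0.11.0; neither annotation release nor strand setting is stated there. The 5 classes of unassigned reads (13.8% to 15.3% per file) were left out; reads set apart as not unique were 4.99% to 5.29% and as ambiguous 3.78% to 4.38%. Intervals and floors cover counting error only.

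Counts were filtered with filterByExpr, given TMM factors and analysed with edgeR 4.0.16 in R 4.3.3 (robust quasi-likelihood F-test, two-sided, group as the only term, Benjamini-Hochberg over 17809 genes, threshold 0.05). Each SE is the log2 fold change over the root of its F value. Libraries of a group differed by more than sampling noise. Positions and union exon lengths are from GENCODE 29 (GRCh38), matched by symbol for all 34 members. Promoters are from RefSeq. The fit was tested on simulated data. Alternative fits used DESeq2 1.42.0, limma-voom (limma 3.58.1), upper-quartile or RLE factors, a 1 CPM minimum in 3 libraries, all genes unfiltered, the replicate number as a block, or 1 library fewer.

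Members and lists were chosen with earlier results of these data known. Every member is described. From each list, the 3 passing genes of smallest adjusted p were named; other genes were named after their values were seen. Single-gene results for some list members are not reported here.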

Additional observations from a re-analysis of the deposited data

How the results depend on the processing

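Over the 25 members, 162 of 173 log2 fold changes refitted with another scaling, filter, tool or the block kept direction and side of the threshold; 9 lost a call and 2 gained one (ANXA9 and S100A2 with DESeq2). With 1 library left out, 109 of 150 kept both, 29 lost a call and 11 gained one, and S100A6 reversed, to -0.19 without parental replicate 3 (with 1 library left out it ranged from -0.19 to 0.21). Same-numbered libraries gave r = -0.0487, -4.24e-05 and -0.0743 between their deviations, and differently numbered ones -0.1492 to 0.1405. With 3 libraries per group and parental replicate 3 far from the others, these values cannot tell whether the numbers pair libraries. The replicate block called 3040 genes, 4 of the S100 group, 0 S100-fused, 2 EF-hand and 8 of the chromosome 1 neighbours (13 without it). For binding partners the count was 2 with RLE factors, no low-count filter or DESeq2. For S100-fused genes it was 1 with limma-voom or with unfiltered genes, and 1 of 1 tested with a 1 CPM minimum in 3 libraries. Leaving out 1 library gave 2692 to 11325 genes, 3 to 13 of the S100 group, 2 to 10 annexins, 1 to 9 partners, 2 to 5 receptors, 2 to 7 plasminogen, 3 to 11 membrane repair, 0 to 3 S100-fused and 1 to 12 EF-hand genes; the highest value is without parental replicate 3 for each, and the lowest is reached without a knockout library for each. By edgeR, the count of 0 S100-fused genes arose with the block and with any knockout library left out, where 2 of 3 had an unadjusted p under 0.05. The cause was not tested. S100A3 and S100A12 could not be fitted at 1 CPM in 3 libraries. Counts for markers and chromosome 1 neighbours were refitted by choice after seeing the data. The 9 members under the low-count filter were not tested.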

Other observations

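Several near relatives of these genes fall outside the symbol rule. ANXA2P2, a pseudogene of ANXA2, was at 15.4 to 17.2 CPM in the knockout and 16 to 23.2 CPM in the parental libraries. ANXA2R, named as a receptor of annexin A2, rose from 0.455, 0.486 and 0.563 CPM to 0.849, 1.25 and 1.04 CPM (log2 fold change 1.06, SE 0.23, edgeR adjusted p = 0.0178). S100A15A and S100A7A had identical reads, at most 2, in each library.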
